A study of Mus musculus with 5 samples.

Results

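The genes described here are 8 genes of gliosis and of the glial filament cytoskeleton: Gfap, Vim, Nes, S100b, Serpina3n, Ggta1, Cd44 and Lcn2. They were chosen by symbol, and all 8 were found among the 16422 genes tested. Nuclear RNA was sequenced from the retina of mice that carried Aldh1l1-cre/ERT2, a Cre recombinase that is switched on by tamoxifen and driven by the Aldh1l1 promoter. They also carried NuTRAP, a reporter that Cre activates and that served here to tag nuclei with biotin. Positive libraries, from nuclei captured on streptavidin beads by the INTACT method, came from animals 12, 40 and 55 (n = 3). Input libraries, from nuclei of the whole retina set aside before capture, came from animals 40 and 55 (n = 2). All animals had received tamoxifen, so that treatment and both transgenes are shared by the 2 fractions, and the 2 retinae of 1 animal made 1 sample. The labels give no age or sex. The series' design text names the Positive fraction as Müller glia, but the Aldh1l1 promoter is also active in astrocytes, and the protocol removes undissociated tissue rich in blood vessels before capture.

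Gliosis is the response of glial cells to injury or stress. In the retina it involves the Müller glia, radial cells that reach across the whole tissue, and the astrocytes of the nerve fibre layer. Its best-known sign is more of the intermediate filament proteins GFAP, vimentin and nestin, which copolymerise into the glial cytoskeleton. Other genes of the set encode a calcium-binding protein of mature glia (S100b), a secreted protease inhibitor (Serpina3n), a glycosyltransferase (Ggta1), the hyaluronan receptor (Cd44) and a secreted iron-siderophore carrier (Lcn2), and mouse reactive astrocytes are known to raise several of them.

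The deposited values are on a log2 scale relative to an Input level of each gene. For each of the 8 genes 1 of the 2 Input values is exactly 0, as in 97.6% of rows. They show differences between libraries but no expression level, so the genes cannot be ranked by abundance, and the depth is unknown. The log2 ratio given for a gene is its Positive mean less its Input mean on this scale, with the standard error (SE) from limma, a linear model fitted across all genes. All 15 Müller glia markers measured, none of them among the 8 genes, lay higher in Positive nuclei, at a median log2 ratio of 0.44. In 14 of these 15 the Positive libraries all lay above Input, against 16.7% of all genes. The 13 rod photoreceptor markers had a median of 0.01, or -0.05 after quantile normalization. Endothelial markers had a median of 0.56, and markers of the pigment epithelium and choroid 0.65. The marker lists were chosen with earlier results of these data known, so they are no independent check of the fractions. For Aldh1l1, whose promoter drives the recombinase, the log2 values were 0.11, 0.44 and 0.48 in Positive 12, 40 and 55, against 0.00 and 0.08 in Input 40 and 55. Aldh1l1 had a log2 ratio of 0.30 (SE 0.14, and limma's adjusted p = 0.382), or 0.19 after quantile normalization.

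Across the 8 genes, 7 had all 3 Positive libraries above both Input libraries, with Lcn2 the exception, or 6 after quantile normalization, where Vim overlapped too. Over all genes tested, 16.7% lay fully above Input in this way and 21.8% fully below it. The log2 ratios ran from 0.11 to 1.26 with a median of 0.70, against a median of -0.02 over all genes. None of the 8 passed limma's test with Benjamini-Hochberg adjustment over all genes (adjusted p between 0.329 and 0.793), a test that called 0 genes higher and 0 lower in the whole table (0.0% in each direction). At an unadjusted p under 0.05, 6 of the 8 were higher, against 6.45% of all genes (1060 genes), and 0 were lower, against 7.76%. Without Input 55 the 6 became 2 and the 1060 became 643, and without Input 40 they were 4 and 702.

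**Figure D1:**
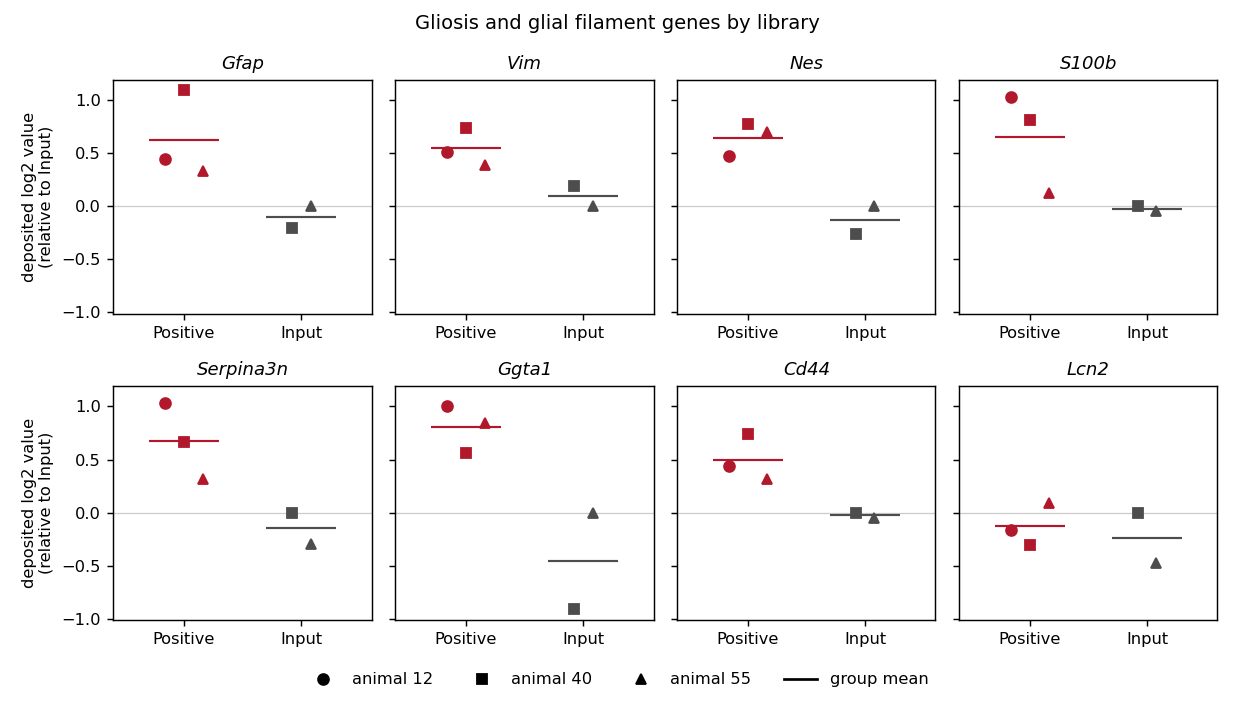
Deposited log2 values of the 8 genes in each library (points, shaped by animal), with Positive on the left and Input on the right of each panel and group means as lines. In each panel but that of Lcn2 the lowest Positive point lies above the highest Input point, by 0.12 for S100b and by 0.56 for Ggta1.

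Gfap encodes the intermediate filament protein of astrocytes, which Müller glia carry in quantity mainly after injury (Entrez gene 14580, mm10 chr11:102887336-102897200, minus strand). Its log2 values were 0.44, 1.09 and 0.33 in Positive 12, 40 and 55, against -0.21 and 0.00 in Input 40 and 55. Positive 40 stood above the other 2 Positive libraries, and the fractions did not overlap. The log2 ratio was 0.73, or 1.66-fold, with a 95% interval of 0.05 to 1.40 (SE 0.26, and limma's adjusted p = 0.344). Within animal 40 the difference was 1.30 and within animal 55 it was 0.33. Without Positive 40 the log2 ratio was 0.49. The interval comes from a fit without pairing by animal (unadjusted p = 0.0392 in limma). With the animal as a fixed block the log2 ratio was 0.82 (unadjusted p = 0.102 in limma). As a random block it was 0.77 (unadjusted p = 0.0249 in limma). The span of a noncoding gene of GENCODE M21, Gm26668, covers the whole Gfap span on the opposite strand. Whether exons of the pair overlap was not checked, and the labels do not state strand. Whether reads of Gm26668 were counted for Gfap was not tested.

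Vim encodes vimentin, the main intermediate filament protein of Müller glia at rest (Entrez gene 22352, chr2:13574311-13582826, plus strand). Vim read 0.51, 0.74 and 0.39 on the log2 scale in Positive 12, 40 and 55, against 0.20 and 0.00 in Input 40 and 55. The fractions did not overlap, and the 3 differences from Input were close to each other, at 0.41 for Positive 12 against the Input mean, 0.55 within animal 40 and 0.39 within animal 55. Vim had a log2 ratio of 0.45 with a 95% interval of 0.09 to 0.81 (SE 0.14, and limma's adjusted p = 0.331). After quantile normalization it was 0.21 and its fractions overlapped.

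Nes encodes nestin, an intermediate filament protein of neural progenitors that glia can make again after injury (Entrez gene 18008, chr3:87971093-87980451, plus strand). On the log2 scale Nes read 0.47, 0.77 and 0.70 in Positive 12, 40 and 55, against -0.26 and 0.00 in Input 40 and 55. The lowest Positive value lay 0.47 above the highest Input value, while the Positive libraries spanned 0.30. Nes had a log2 ratio of 0.78, or 1.72-fold, with a 95% interval of 0.42 to 1.14 (SE 0.14). It had the lowest p-value of the 8 genes (unadjusted p = 0.00278, adjusted p = 0.329 in limma).

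The start regions of these 3 filament genes, which lay higher in Positive nuclei, are shown with that of Lcn2, which did not separate the fractions. Each runs from 120 bases before the RefSeq start to 20 bases after it (GRCm38.p6, 5′ to 3′ on the gene's strand), and capitals mark a match to TTCNNNGAA, the palindrome recognised by STAT factors.
Gfap, chr11:102897181-102897320, minus strand: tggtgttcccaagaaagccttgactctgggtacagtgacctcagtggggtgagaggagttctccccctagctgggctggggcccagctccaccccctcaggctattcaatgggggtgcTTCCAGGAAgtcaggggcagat
Vim, chr2:13574191-13574330, plus strand: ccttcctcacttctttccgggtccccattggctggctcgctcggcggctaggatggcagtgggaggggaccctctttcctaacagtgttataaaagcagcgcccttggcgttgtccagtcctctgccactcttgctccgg
Nes, chr3:87970973-87971112, plus strand: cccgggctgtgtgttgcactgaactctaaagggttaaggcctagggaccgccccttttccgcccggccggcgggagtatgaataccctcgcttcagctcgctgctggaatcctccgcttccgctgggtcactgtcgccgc
Lcn2, chr2:32387720-32387859, minus strand: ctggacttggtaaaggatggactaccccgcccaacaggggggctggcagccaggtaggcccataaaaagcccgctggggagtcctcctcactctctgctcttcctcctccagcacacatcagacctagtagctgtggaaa
In windows of 250 bases before to 50 after the start, 1 of the 8 genes held this motif, which is its own reverse complement. The match lies in Gfap, from base -2 to base 7 counted from the start with no base 0. Of 32851 RefSeq promoter windows of the same length, 8.30% held it. The AP-1 sequence TGACTCA, searched on both strands, was in 0 of the 8 windows and in 5.20% of all windows. A match describes the letters only.

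S100b encodes a calcium-binding protein of astrocytes and Müller glia (Entrez gene 20203, chr10:76253836-76261319, plus strand). Log2 values of 1.03, 0.82 and 0.12 were found in Positive 12, 40 and 55, against 0.00 and -0.05 in Input 40 and 55. The fractions did not overlap, but Positive 55 lay far nearer to Input than to the other Positive libraries. The log2 ratio was 0.68 with a 95% interval of -0.07 to 1.43 (SE 0.29, and limma's adjusted p = 0.363), and it was 0.95 without Positive 55. The last 1891 bases of S100b overlap Dip2a on the opposite strand, a gene with a log2 ratio of -0.24 (SE 0.10, and limma's adjusted p = 0.358).

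Serpina3n encodes a secreted serine protease inhibitor of reactive astrocytes (Entrez gene 20716, chr12:104406708-104414329, plus strand). Its log2 values were 1.03, 0.67 and 0.32 in Positive 12, 40 and 55, against 0.00 and -0.30 in Input 40 and 55. All 3 Positive libraries lay above Input, and Positive 12 was the highest. The log2 ratio was 0.82, or 1.77-fold, with a 95% interval of 0.20 to 1.44 (SE 0.24, and limma's adjusted p = 0.331). Serpina3n belongs to a cluster of similar genes, and how reads shared between them were counted is not given. Of its neighbours, Serpina3b had a log2 ratio of 0.30 and Serpina3h, which passed the authors' filter in 1 condition only, had 0.95.

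Ggta1 encodes the alpha-1,3-galactosyltransferase that adds the terminal alpha-galactose of many mouse glycans (Entrez gene 14594, chr2:35400179-35461425, minus strand). Ggta1 stood at log2 values of 1.00, 0.56 and 0.85 in Positive 12, 40 and 55, against -0.91 and 0.00 in Input 40 and 55. The Positive libraries lay within 0.44 of each other, while the 2 Input libraries differed by 0.91. The log2 ratio of 1.26, or 2.39-fold, was the highest of the 8 (95% interval 0.46 to 2.06; SE 0.31, and limma's adjusted p = 0.331). It rests in part on Input 40: without that library it was 0.80, and within animal 55 it was 0.85.

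Cd44 encodes the cell-surface receptor for hyaluronan, which lies on the apical processes of Müller glia (Entrez gene 12505, chr2:102811142-102901665, minus strand). Its log2 values were 0.44, 0.74 and 0.31 in Positive 12, 40 and 55, against 0.00 and -0.05 in Input 40 and 55. The 2 Input libraries were close to each other and every Positive library lay above them. Cd44 had a log2 ratio of 0.53 with a 95% interval of 0.14 to 0.91 (SE 0.15, and limma's adjusted p = 0.331).

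Lcn2 encodes lipocalin-2, an acute-phase protein strongly induced in reactive mouse astrocytes (Entrez gene 16819, chr2:32384637-32387739, minus strand). The Lcn2 log2 values were -0.16, -0.30 and 0.09 in Positive 12, 40 and 55, against 0.00 and -0.47 in Input 40 and 55. The fractions overlapped, and the sign of the difference turned between animals, at -0.30 within animal 40 and 0.56 within animal 55. Lcn2 had a log2 ratio of 0.11 with a 95% interval of -0.40 to 0.62 (SE 0.20, and limma's adjusted p = 0.793). It came to -0.13 when Input 55 was left out, 0.35 when Input 40 was, 0.00 when Positive 55 was, 0.20 when Positive 40 was and 0.29 after quantile normalization.

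**Figure D2:**
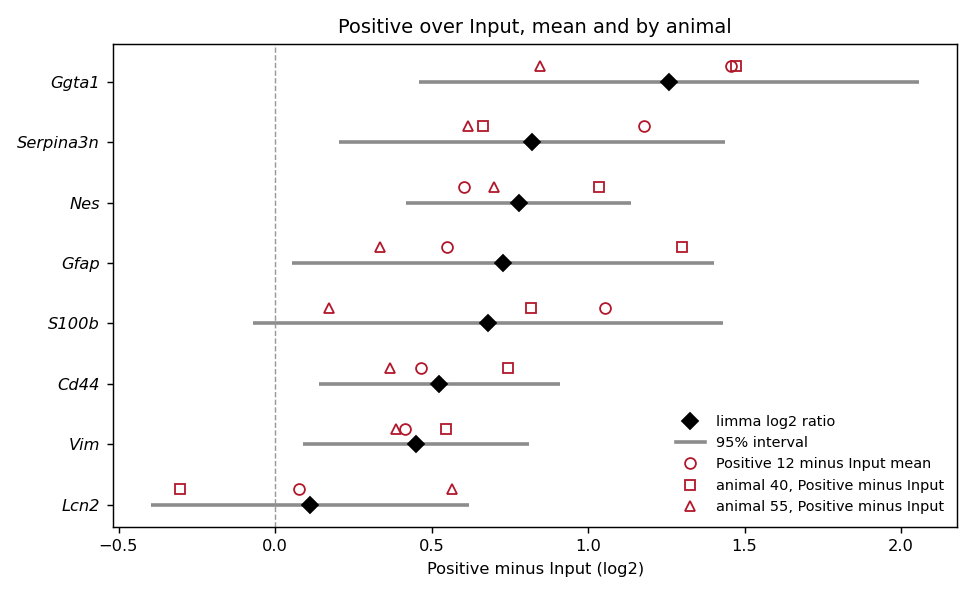
Positive minus Input differences on the log2 scale for each gene: limma's log2 ratio (diamonds) with its 95% interval (bars), and, just above, Positive 12 minus the Input mean and the within-animal differences of animals 40 and 55. Of these 24 differences, which all use the same 2 Input libraries, only that of Lcn2 in animal 40 lies below 0, at -0.30.

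The 8 intervals all share the stretch from 0.46 to 0.62, so neighbours in the order from Ggta1 through Serpina3n, Nes, Gfap, S100b, Cd44 and Vim to Lcn2 are not separated by their intervals. Within animal 40, 7 of the 8 genes were higher in Positive nuclei, with a median log2 difference of 0.78, against 49.1% of all genes above 0. Within animal 55 all 8 were higher, with a median of 0.48, against 44.3% of all genes, and Positive 12 lay above the Input mean in all 8, against 48.5%. The difference was larger within animal 40 than within animal 55 in 7 of the 8. The share of all genes for this count was not computed, so it is not read as a trait of the 8. Over all genes the median difference was -0.01 within animal 40 and -0.03 within animal 55. For Müller glia markers these medians were 0.59 and 0.38. Among the Positive libraries, Positive 40 was the highest for Gfap, Vim, Nes and Cd44, and Positive 12 for S100b, Serpina3n and Ggta1. Positive 55 was the lowest in 5 of the 8, against 32.6% of all genes.

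Markers of several cell types also lay higher in Positive nuclei. The 8 genes had a median of 0.58 in Positive 12, 0.83 in Positive 40 and 0.39 in Positive 55, each relative to the Input mean of the gene. Müller glia markers had 0.38, 0.63 and 0.37. Retinal astrocyte markers other than the 8 genes had medians of 0.19, 0.52 and 0.22, with 8 of 9 log2 ratios above 0 and 3 of 9 with no overlap of the fractions, all 3 higher in Positive. Microglia and macrophage markers had 0.21, 0.47 and 0.22, with 11 of 14 above 0. Of these 14, 4 lay fully above Input and 1, C1qb, fully below it. Endothelial markers had 0.59, 0.41 and 0.71, with 10 of 11 above 0 and 9 of 11 fully above. Mural cell markers had 0.23, 0.23 and 0.28, with 8 of 9 above 0 and 5 fully above. Markers of the pigment epithelium and choroid had 0.85, 1.00 and 0.61, with 7 of 9 above 0 and 4 fully above. Each of these counts of genes fully above or below Input stands against 16.7% and 21.8% of all genes. Whether defining markers are at 0 cannot be read from relative values. Which of these cell types, glial or not, carried RNA of the 8 genes was not tested. Their part in the differences of the 8 genes was not tested either. In bulk nuclei, more nuclei of a type and more RNA per nucleus cannot be told apart.

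Gfap, Vim and Nes belong to the intermediate filament family, whose 17 listed genes were all measured. Over the family the median log2 ratio was 0.10 (0.16 without Input 40, 0.15 without Positive 55 and 0.15 with the random replicate block), with 11 genes above 0, 6 with every Positive library above Input and 0 below it, against 16.7% and 21.8% of all genes. None passed limma's adjusted threshold. Without Gfap, Vim and Nes the median of the other 14 was 0.03. Of these 14, Krt8, a keratin of simple epithelia, had log2 values of 1.55, 1.22 and 1.17 in Positive 12, 40 and 55, against 0.00 and -0.11 in Input 40 and 55. Its log2 ratio was 1.36 (SE 0.14, and limma's adjusted p = 0.249), while that of its usual filament partner Krt18 was 0.18 (SE 0.17).

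Among the neuronal filaments, the neurofilament genes Nefl and Nefm had log2 ratios of 0.30 (SE 0.14) and 0.25 (SE 0.17), and Nefh had 0.04. Ina had 0.16 (SE 0.10) and Prph had -0.08 (SE 0.22). Nefl and Ina were among the genes of the family with every Positive library above Input. Synm, whose product joins vimentin and desmin filaments, had 0.02 (SE 0.10), and the nuclear lamin genes Lmna, Lmnb1 and Lmnb2 lay between -0.12 and 0.10. The lens filament gene Bfsp2 and the muscle filament gene Des were at the low end, at -0.41 (SE 0.74) and -0.30 (SE 0.32). The 5 listed linkers, large plakins that tie filaments to junctions and to other cytoskeletal systems, all had log2 ratios below 0. In 4 of the 5, Evpl, Dst, Plec and Macf1, every Positive library lay below both Input libraries, against 21.8% of all genes. Plec, whose product plectin binds vimentin and GFAP filaments, had -0.36 (SE 0.12, and limma's adjusted p = 0.338) and Evpl had -0.76 (SE 0.17, and limma's adjusted p = 0.331).

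**Figure D3:**
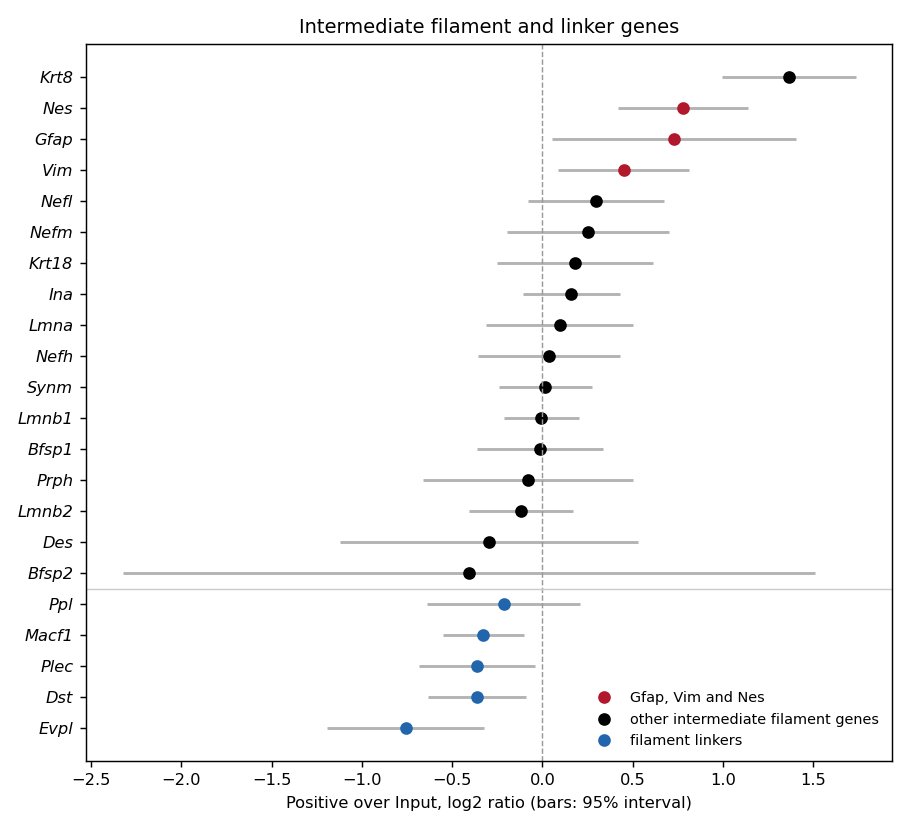
Log2 ratios of Positive over Input with 95% intervals (bars) for 17 intermediate filament genes and, below the line, 5 linker genes. Krt8, Nes, Gfap and Vim are the 4 filament genes whose interval lies above 0, and the linkers lie between -0.76 and -0.21.

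Of 13 pan-reactive astrocyte genes, which mouse brain astrocytes raise after more than 1 kind of injury, 12 were measured and 5 of these are among the 8 genes described here. The other 7 had a median log2 ratio of 0.43, with 4 above 0, 3 fully above Input and 1 fully below it, against 16.7% and 21.8% of all genes, and 0 passed limma's adjusted threshold. The 3 fully above were Cp, the ceruloplasmin gene, at 0.43 (SE 0.10), Osmr, a cytokine receptor subunit gene, at 0.44 (SE 0.11), and S1pr3, a sphingosine-1-phosphate receptor gene, at 0.53 (SE 0.15). Timp1, a metalloproteinase inhibitor gene, was fully below, with log2 values of -0.25, -1.67 and -0.44 in Positive 12, 40 and 55, against 0.00 and 0.08 in Input 40 and 55. Its log2 ratio was -0.83 (SE 0.46, and limma's adjusted p = 0.434), and that of Aspg was -0.22 (SE 0.59).

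Ggta1 is one of the genes often labelled A1, a set seen in mouse astrocytes after systemic endotoxin. Of the other 11 on that list 10 were measured, with a median log2 ratio of 0.12, and 3 of the 10 lay fully above Input, against 16.7% of all genes. These were Gbp2, an interferon-induced GTPase gene, at 0.90 (SE 0.20), Fbln5, an elastic fibre gene, at 0.78 (SE 0.19), and Srgn, a proteoglycan gene, at 0.34 (SE 0.16). Fkbp5 and Amigo2 were at the low end, at -0.01 and 0.00. For the whole list of 11 the median of 0.13 was 0.33 without Positive 40 and 0.30 without Input 55. The A2-labelled set, seen after ischaemia, holds none of the 8 genes, and its 10 measured members had a median of 0.11, with 2 fully above and 1 fully below, shares near or under the 16.7% and 21.8% of all genes. The median was -0.09 without Input 40, 0.30 without Input 55, 0.04 without Positive 40 and 0.24 without Positive 12, and either replicate block by animal also gave 0.24. Of the 2 genes fully above, Ptgs2 met the authors' filter in 1 condition only, and its difference within animal 55 was 0.00.

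**Figure D4:**
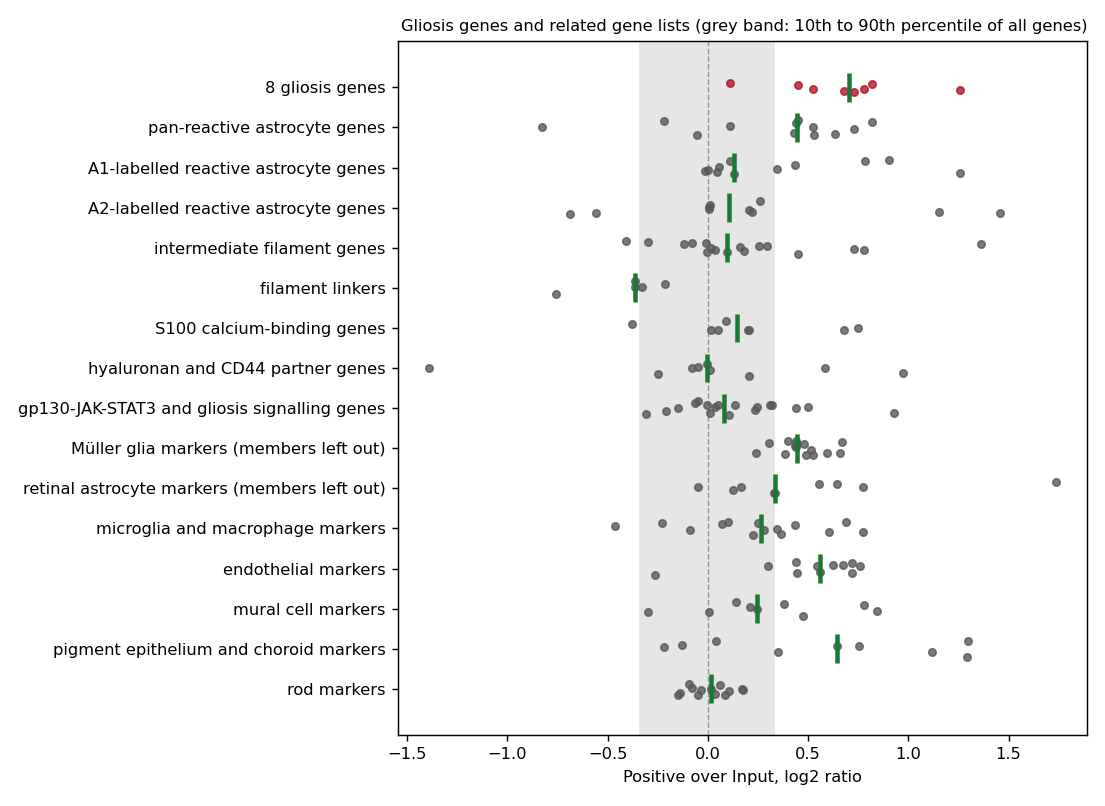
Log2 ratios of Positive over Input for each measured gene (points) of the 8 gliosis genes and of 15 related lists, with list medians as green bars and the 10th to 90th percentile of all genes, -0.34 to 0.33, in grey. The 8 genes have a median of 0.70, Müller glia markers 0.44, pigment epithelium and choroid markers 0.65, endothelial markers 0.56 and rod markers 0.01.

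Over the 5 libraries, the genes with values closest to those of Gfap were Nkx2-1, a homeobox factor gene, Prg4, which encodes lubricin, Mamdc2, Cd9, a tetraspanin gene, and Perp, a desmosomal gene. Closeness was the Euclidean distance of log2 values, each gene set relative to its Input mean, over 15670 genes that passed the authors' filter in both conditions. The distances ran from 0.18 for Nkx2-1 to 0.27 for Perp. All 5 were highest in Positive 40, with 1.13 for Nkx2-1 and 0.97 for Cd9, and their log2 ratios lay between 0.61 and 0.71. With 5 libraries and that many genes, close profiles are a description only.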

How the data were processed

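The authors deposited 1 table of normalized log2 values for 5 libraries, and 0 of its columns belong to other samples. Per the file headers, genes follow RefSeq models, and a row was retained if all libraries of 1 or both of the 2 conditions reached a raw value of at least 5. All 8 genes met this in both conditions. The submitters' processing notes name mm10 and DESeq. No source used here gives the aligner, the counting tool or the handling of introns and strand. Depth cannot be recovered from values relative to Input, so no counting error could be given.

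Limma 3.58.1 (R 4.3.3) was fitted to the deposited log2 values of Positive against Input without a variance trend or block, two-sided. P-values were adjusted by the Benjamini-Hochberg method over 16422 genes, keeping for each symbol the row with the highest mean, with a threshold of 0.05. The same code was run on simulated data with independent errors and no pairing. The requirement there was on the median log2 ratio, so it is no check of the calls in paired data. An exact permutation test of 3 against 2 libraries cannot give a p under 0.1 and was not used. Intervals are limma's 95% intervals. The 5 libraries come from 3 separate animals. Without a block the fit treats them as independent, although 2 animals gave both fractions, and the random block by animal estimated a correlation of 0.514.

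The 8 genes and the 15 lists were chosen with earlier results of these data known. Named besides the 8 were Aldh1l1, the highest and lowest 2 of each list by log2 ratio and the 5 genes closest to Gfap, and not all genes this rule names are printed. Genes named because their fractions did not overlap, and the remaining filament, receptor, CD44 partner, Serpina3 and overlapping genes, were chosen after their values were seen. The labels give Positive and Input of animals 40 and 55 the same animal numbers, so these are pairs, and Positive 12 is unpaired. Within each pair, deviations from the fraction means correlated across genes (r = 0.174 in animal 40, r = 0.196 in animal 55). The 2 Input deviations of a gene are equal and opposite, so the 2 correlations share them and are not separate checks. Alternatives were a variance trend, a robust prior, the animal as a fixed or random block, quantile normalization, median centring, a stricter filter, all rows kept, and each library left out. Coordinates are those of the deposited table. Promoter windows are RefSeq's for GRCm38.p6, matched by symbol for all 8 genes, and overlapping genes are from GENCODE M21.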

Additional observations from a re-analysis of the deposited data

How the results depend on the processing

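The 7 genes other than Lcn2 kept a positive log2 ratio in all 13 alternatives, and Lcn2 in 12, with -0.13 without Input 55 and a range of -0.13 to 0.35 over the libraries left out. Under every alternative 0 of the 8 genes passed limma's adjusted threshold, and the lowest adjusted p of any of them was 0.102, for Nes under the random replicate block by animal. Between 6 (after quantile normalization) and 8 (without Input 40) of them lay fully above Input. The median of the 8 ran from 0.55 without Positive 40 to 0.81 without Positive 55. Over all genes, the random replicate block called 4 genes higher and 7 lower, none of them among the 8, where the comparison without a block called 0 and 0. The fixed replicate block, which takes Positive 12 out of the contrast, called 0, and gave the 8 genes a median of 0.60. At an unadjusted p under 0.05 the count of higher genes ran from 643 to 1401 with a library left out, against 1060. The count of lower genes ran from 287 to 1787, against 1274, and was 555 after quantile normalization. With the random replicate block the 2 counts were 1955 and 2350. The cause of these shifts was not tested. With 3 and 2 libraries the intervals are wide, and depth is unknown.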

Other observations

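Of the S100 family of calcium-binding proteins, 8 of 11 listed genes were measured. The 7 besides S100b had a median log2 ratio of 0.09, and in 0 of the 7 did the fractions separate. Of all genes, 16.7% lay fully above Input and 21.8% fully below it. With S100b the median of 0.15 was 0.05 without Input 40, 0.08 without Positive 40, 0.23 without Positive 55 and 0.37 without Input 55. S100a4 had the highest log2 ratio, 0.75 (SE 0.71), with log2 values of 2.32, 0.77 and 0.06 in Positive 12, 40 and 55, against 0.60 and 0.00 in Input 40 and 55, with Positive 12 far above the other libraries. S100a13 had the lowest, -0.38 (SE 0.22), and S100a11 had 0.02 (SE 0.36).

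The list of hyaluronan genes and partners of the CD44 receptor was split. Ezr, which encodes ezrin, the linker between membrane proteins and actin in the microvilli of Müller glia, had log2 values of 0.82, 1.01 and 0.75 in Positive 12, 40 and 55, against -0.23 and 0.00 in Input 40 and 55. Its log2 ratio was 0.97 (SE 0.12, and limma's adjusted p = 0.267). Of the other listed partner genes, Msn had 0.20 (SE 0.10), also fully above Input, and Rdx had 0.01 (SE 0.07). The hyaluronidase gene Hyal2 had 0.59 (SE 0.12), and its fractions did not overlap either. The hyaluronan synthase genes Has2 and Has3 had -1.39 (SE 0.77) and -0.25 (SE 0.13), and Has2 met the authors' filter in just 1 condition. The 9 measured genes of this list had a median of -0.01, or 0.08 after quantile normalization, with 3 fully above and 1 fully below Input, against 16.7% and 21.8% of all genes, and 0 called by limma after adjustment.

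A further list holds genes of gp130, JAK and STAT3 signalling, a pathway known to drive Gfap in glia, and other gliosis signalling genes. Of its 19 genes 18 were measured, with a median log2 ratio of 0.08. This median was 0.03 without Positive 40, 0.14 without Positive 55, 0.12 without Input 40 and 0.05 with the random replicate block. In 6 of the 18 every Positive library lay above Input, against 16.7% of all genes, and in 2 below it, against 21.8%. These 6 were all receptor genes: Il6ra, Osmr, Egfr, Ednrb, Cntfr and Fgfr1, named after their values were seen. Of these, Egfr, Ednrb and Fgfr1 are gliosis signalling genes listed beside the pathway, as is Fgf2. Il6ra, the interleukin-6 receptor gene, had 1.06, 0.72 and 0.90 in Positive 12, 40 and 55, against 0.00 and -0.07 in Input 40 and 55, a log2 ratio of 0.93 (SE 0.12, and limma's adjusted p = 0.267). The co-receptor gene Il6st did not follow, at 0.00 (SE 0.11). The co-receptor gene Lifr, at -0.15 (SE 0.09), and Tyk2 were the 2 genes fully below Input. Stat3 itself had a log2 ratio of -0.07 (SE 0.10) and its feedback target Socs3 had 0.11 (SE 0.17). The cytokine gene Lif had 0.50 (SE 0.32), Fgf2 had -0.21 (SE 0.59) and Tyk2 had -0.31 (SE 0.12), and none of the 18 passed limma's adjusted threshold.

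Among the A2-labelled genes, Ptgs2, the inducible cyclooxygenase gene, stood at a log2 ratio of 1.46 (SE 0.74) and met the authors' filter in just 1 condition. Input 40 lay far below the other libraries at -2.44, and the difference within animal 55 was 0.00. Tm4sf1 had 1.15 (SE 0.61) and Tgm1 had -0.69 (SE 0.75). Tgm1 also met the filter in just 1 condition, and its Positive 40 value of -2.12 lay far below the other libraries. B3gnt5, a glycosyltransferase gene of lactosylceramide chains, was fully below Input and its 3 Positive values, -0.67, -0.68 and -0.66, lay closer together than those of the other genes of its list. Its log2 ratio was -0.56 (SE 0.10, and limma's adjusted p = 0.329).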
